A study of Mus musculus with 12 samples.

Results

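The diabetic mouse heart without pargyline was compared with the control heart on 6 of the 12 arrays of the series, the 3 arrays labelled Diabetic (D) and the 3 labelled Control (C). All mice were male C57BL6/J, 5 months old when their age was recorded, and 6 to 7 weeks old and at least 20 g in weight at the start. The D mice had received streptozotocin (STZ) intraperitoneally at 50 mg/kg per day on consecutive days, followed by 12 weeks with vehicle, and counted as diabetic at a blood glucose of at least 17 mM. The C mice were the vehicle group without STZ, called untreated in the design text. No group carried an engineered allele. The tissue was labelled heart muscle, with 1 mouse per array and no statement of which chamber was taken, and 200 ng of total RNA with an integrity number above 7 was labelled per array. The same comparison under the monoamine oxidase inhibitor pargyline (C + P and D + P, 3 arrays each) was set beside it for the same genes, and those 6 arrays also entered the estimate of the spread.

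STZ kills the insulin-producing cells of the pancreas, so the heart of such mice works with little insulin and a high supply of glucose, fatty acids and ketone bodies. In the insulin-deficient heart fatty acids are known to act through the nuclear receptor PPARα, whose target genes encode enzymes of fatty acid use, while glucose uptake through the insulin-dependent transporter GLUT4 and glucose oxidation are held back. Natriuretic peptides are hormones that the stretched or failing heart releases, and they serve as markers of cardiac load. In a piece of tissue, fewer cells of a type and less RNA per cell cannot be told apart.

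Values are log2 signal intensities after quantile normalization, and a difference is the mean of the D arrays minus that of the C arrays, so that 1.00 stands for a doubling. Probes were tested with limma over all 12 arrays, and called at a Benjamini-Hochberg adjusted p under 0.05. The C arrays were alike, with a median SD between arrays of 0.17, whereas that of the D arrays was 0.34, and it was larger in D than in C for 75.2% of the 30859 probes tested. Repeated spots of a probe varied most on D replicate 1, where the median coefficient of variation was 23.2%, against 10.1% on C replicate 1 and 3.89 to 4.61% on the other 4 arrays. D replicates 1 and 3 also had the fewest spots well above background, 23556 and 24666, against 28472 to 29231 on D replicate 2 and the C arrays. In a principal component analysis of the 6 arrays the first component, with 41.2% of the variance, parted D replicate 1 from D replicate 3 and held 0.735% of its own variance between the groups. The second, with 30.4%, held 80.6% of its variance between the groups. The C arrays filled row 1 of the slide and the D arrays row 2, and the effect of the row cannot be told apart from that of diabetes.

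**Figure D1:**
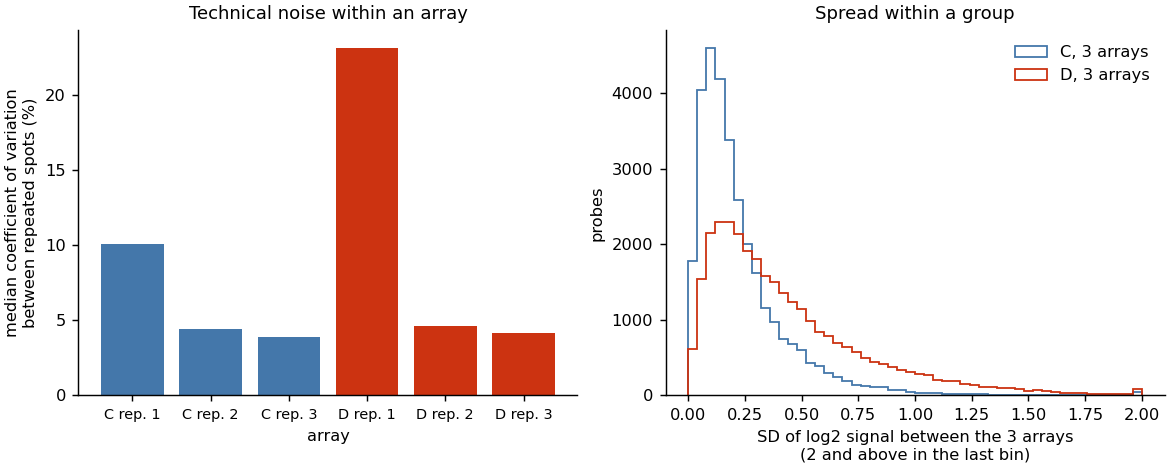
Left, how much repeated spots of a probe varied on each C and D array (bars, median coefficient of variation in %); right, the number of probes (y axis) at each SD of log2 signal between the 3 arrays of C or of D (x axis). The bar of D replicate 1 stands at 23.2%, and the D histogram lies to the right of that of C (median SD 0.34 against 0.17).

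The probes of 2 genes passed the threshold, 0.00648% of those tested, and both rose in the diabetic heart, while 0 probes fell (1748 were lower at an unadjusted p under 0.05). They were *Nmrk2*, nicotinamide riboside kinase 2, which makes the NAD precursor nicotinamide mononucleotide and is mostly a muscle enzyme, and *Nppa*, the precursor of atrial natriuretic peptide. At an unadjusted p under 0.05 there were 3332 probes (10.8%), 1584 higher in D (5.13%) and 1748 lower (5.66%). The 3 D arrays lay above all 3 C arrays for 3671 probes (11.9%) and below them for 3195 (10.4%), 22.2% in all. Both calls depended on the fit. With the 6 arrays of C and D alone 0 probes were called by limma, and 3588 had an unadjusted p under 0.05 (adjusted p 0.237 for *Nmrk2* and 0.244 for *Nppa*). With the column of the slide as a block 0 probes were called as well, and 2628 had an unadjusted p under 0.05 (adjusted p 0.396 for *Nmrk2* and for *Nppa*). That fit kept only the slide columns that held both groups, so it left out C replicate 2 and D replicate 1. Probes lower in D were called in a few fits, 1 of 3 calls with normexp background correction, 3 of 5 without D replicate 2 and 1640 of 2936 with array weights, whose estimation stopped before its tolerance. Leaving out C replicate 1, 2 or 3, or D replicate 3, also gave 0 calls (adjusted p of *Nmrk2* 0.211, 0.0812, 0.277 and 0.0837), and without D replicate 1 *Nppa* had an adjusted p of 0.0785, while the size of both differences lay between 1.64 and 1.91 in these fits. With 3 arrays against 3 an exact permutation test cannot give a two-sided p below 0.1.

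The stretches just upstream of the transcription starts of both called genes are shown because these are the genes whose RNA rose; they were taken from RefSeq on build GRCm38.p6, in which both genes were matched by symbol, and run 5′ to 3′ over the 250 bases before the start. Capitals mark matches, on either strand, to the TATA box core TATAAA, the GATA site TGATAA, the TEAD site GGAATG or the nuclear receptor half-site AGGTCA.
*Nmrk2* (chr10:81202038-81202287, minus strand): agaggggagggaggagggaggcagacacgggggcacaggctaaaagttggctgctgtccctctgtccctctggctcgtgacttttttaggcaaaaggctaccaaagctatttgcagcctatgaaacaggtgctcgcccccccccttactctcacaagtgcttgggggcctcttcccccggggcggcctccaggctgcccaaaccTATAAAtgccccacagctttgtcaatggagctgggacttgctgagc
*Nppa* (chr4:148000472-148000721, plus strand): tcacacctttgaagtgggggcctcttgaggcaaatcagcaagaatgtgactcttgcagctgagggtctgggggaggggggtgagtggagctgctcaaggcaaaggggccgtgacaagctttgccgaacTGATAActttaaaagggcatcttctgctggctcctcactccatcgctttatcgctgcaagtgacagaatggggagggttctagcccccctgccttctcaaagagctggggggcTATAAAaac
TATAAA stood in both, 46 to 41 bases before the start of *Nmrk2* and 9 to 4 bases before that of *Nppa*, and in 12.4% of all 32851 promoter windows of RefSeq cut to the same length. TGATAA stood once, 122 to 117 bases before the start of *Nppa*, and in 7.94% of all windows. GGAATG and AGGTCA, held by 12.6 and 14% of all windows, did not occur in these 2 windows.

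*Nmrk2* gave 7.14, 7.28 and 7.17 on the C arrays and 9.37, 8.86 and 8.90 on the D arrays. Its D arrays lay well above its C arrays, with no overlap. The difference was 1.85 (SE 0.18, adjusted p 0.0253), a 3.6-fold rise, read by a probe at chromosome 10, 80662033 to 80662092 (mm9). Which exon or untranslated stretch a probe reads is not stated in the files. Gene lists were read by the brightest probe of each gene, which made 16676 genes, of which 1 was called (0.006%), 5.3% were higher and 4.92% lower at an unadjusted p under 0.05 (10.2% in all), and 12.7% lay above and 10.7% below C without overlap (23.4% in all). Of the 22 genes of NAD metabolism that were tested, only *Nmrk2* passed the threshold; 2 were higher and 2 lower at an unadjusted p under 0.05, and the median difference was -0.04. Its paralogue *Nmrk1* differed by -0.76 (adjusted p 0.449), from 8.11, 7.97 and 7.66 on the C arrays and 7.71, 7.40 and 6.33 on the D arrays, with 1 C array below the highest D array and a second probe of the opposite sign.

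The called *Nppa* probe (chromosome 4, 147375892 to 147375951) gave 12.25, 12.32 and 12.00 on the C arrays and 14.11, 13.58 and 14.09 on the D arrays. These groups did not overlap, and the difference was 1.74 (SE 0.19, adjusted p 0.0278), a 3.34-fold rise. The second and brighter *Nppa* probe was 1.67 higher (adjusted p 0.215). *Nppb*, which encodes B-type natriuretic peptide and neighbours *Nppa*, gave 13.35, 13.21 and 13.42 on the C arrays and 15.40, 14.42 and 14.54 on the D arrays; all D arrays exceeded all C arrays, with a difference of 1.46 (SE 0.36, adjusted p 0.275). *Myh7*, the slow myosin heavy chain that a loaded mouse ventricle re-expresses, gave 11.44, 11.87 and 11.48 on the C arrays and 13.83, 12.06 and 12.76 on the D arrays. D replicate 2 stood only just above the C arrays, the difference was 1.28 (adjusted p 0.431), and a second probe had the opposite sign. *Corin*, the protease that activates natriuretic peptides, was 0.52 higher (adjusted p 0.454), whereas *Acta1* and *Ankrd1*, other genes known from hypertrophy, differed by -0.08 and -0.02 (adjusted p 0.958 and 0.984), with overlapping arrays and the opposite sign under 75th percentile scaling (0.042 and 0.18). Of the 11 natriuretic peptide and stretch genes tested, 4 were higher and 1 lower at an unadjusted p under 0.05, and the median difference was 0.17, against 0.00 over all genes. This median ran from 0.099 without C replicate 3 to 0.41 without C and D replicate 1.

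Atrial tissue is rich in *Nppa*, so the other atrial markers were read on the same arrays. Of 10 markers 8 were tested, 6 had a higher mean in D, 2 were higher and 0 lower at an unadjusted p under 0.05, and 3 lay above and 1 below C without overlap. The median difference was 0.44, or 0.27 without C replicate 1, 0.21 without D replicate 1 and 0.19 with normexp background correction. *Myl7*, the atrial light chain, was near background in both groups, at 4.46, 4.76 and 5.21 on the C arrays and 5.60, 6.09 and 5.55 on the D arrays and well above background on 1 array of each group, and was 0.94 higher without overlap (adjusted p 0.452), while *Sln* and *Bmp10* did not pass the detection filter. *Myl4*, another atrial light chain, gave 7.77, 8.30 and 8.18 on the C arrays and 7.95, 7.48 and 8.07 on the D arrays, a difference of -0.25 (adjusted p 0.674). The summed signal of the atrial list, of which *Nppa* is part, was 47248 to 49405 in C and 65683 to 78142 in D, and the part of atrial tissue in the *Nppa* result was not tested. Ventricular markers were bright in both groups, with a median difference of -0.04 over 10 genes.

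**Figure D2:**
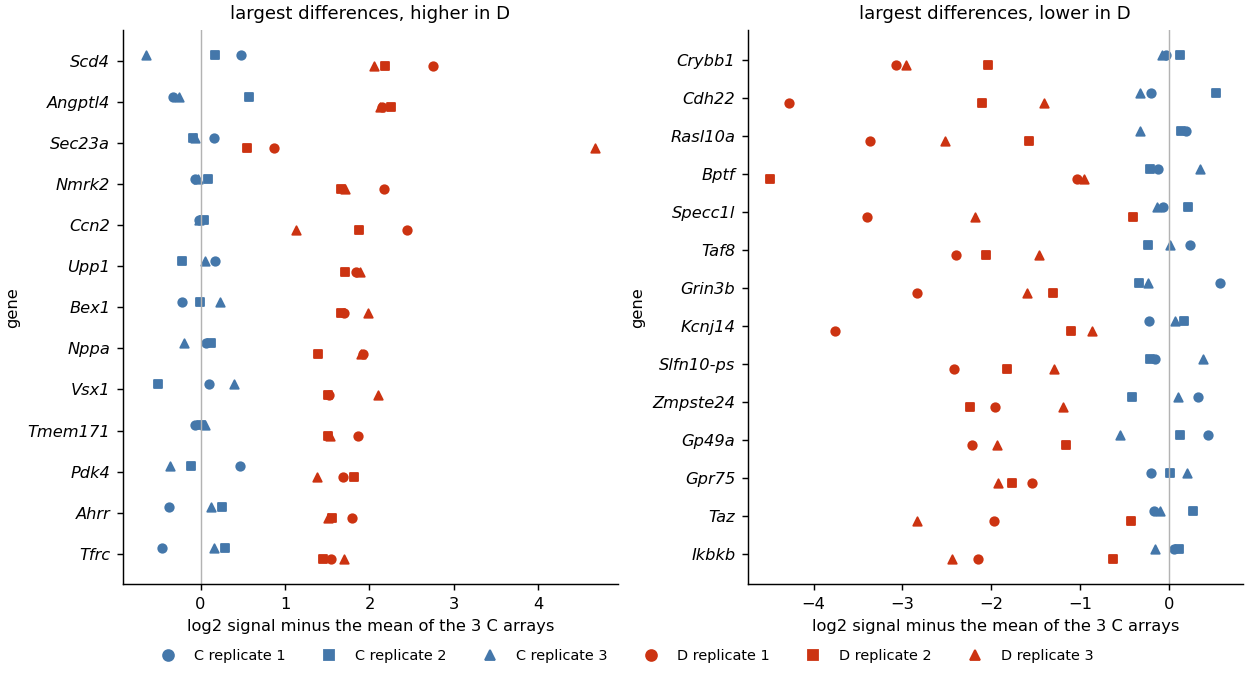
Each point is 1 array: log2 signal minus the mean of the 3 C arrays (x axis) for genes with the largest differences in each direction (y axis), C arrays in blue and D arrays in red, replicates by marker. By the way these genes were chosen no red point overlaps the blue points of its gene; the red points of *Angptl4* and *Upp1* lie close together, while *Sec23a* rests on D replicate 3 and *Bptf* on D replicate 2.

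The genes with the largest differences were named by size, among 783 genes higher and 890 lower in D whose groups did not overlap at an unadjusted p under 0.05, with a signal well above background on all arrays of the brighter group. Apart from *Nmrk2* and *Nppa* none passed the adjusted threshold. Among the higher genes, *Scd4*, *Angptl4* and *Pdk4* belong to lipid and fuel metabolism. *Upp1*, uridine phosphorylase 1, which breaks down uridine, came closest to the threshold: it gave 5.50, 5.11 and 5.39 on the C arrays and 7.17, 7.05 and 7.22 on the D arrays, without overlap, and was 1.82 higher (SE 0.22, adjusted p 0.0707). *Ccn2* (connective tissue growth factor) was 1.82 higher, *Bex1* 1.78, *Tmem171* 1.64, *Ahrr*, the repressor of the aryl hydrocarbon receptor, 1.62, and *Tfrc*, the transferrin receptor that takes up iron, 1.56 (adjusted p 0.215 to 0.301). *Vsx1* was at least 2.24-fold higher (adjusted p 0.342), its probe being well above background on 3 D arrays and on 0 C arrays. *Sec23a* was 2.03 higher, but D replicate 3 read 11.24 against 7.44 and 7.12 on the other D arrays and 6.48 to 6.72 in C.

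The 14 genes lower in D were mostly read by dim probes. For *Crybb1*, *Rasl10a*, *Taf8*, *Grin3b*, *Slfn10-ps*, *Zmpste24*, *Gp49a* and *Gpr75* the probe was well above background on 3 C arrays and on 0 D arrays, so the D level is only a bound. *Rasl10a*, a small GTPase of the RAS group, was at least 2.22-fold lower in D (adjusted p 0.215) and *Zmpste24*, the protease that matures lamin A, at least 1.96-fold (adjusted p 0.215), with another *Zmpste24* probe of the opposite sign. *Crybb1* was at least 1.61-fold lower, *Grin3b* at least 1.51-fold, *Gp49a* at least 1.45-fold, *Gpr75* at least 1.38-fold and *Taf8* at least 1.09-fold (adjusted p 0.207 to 0.322). *Cdh22*, a cadherin, gave 7.23, 7.96 and 7.11 on the C arrays and 3.16, 5.33 and 6.03 on the D arrays, and *Kcnj14*, an inward rectifier potassium channel, gave 6.63, 7.02 and 6.91 on the C arrays and 3.10, 5.75 and 5.98 on the D arrays; in both D replicate 1 read far below the other D arrays. *Taz* (tafazzin, which remodels cardiolipin of the inner mitochondrial membrane) differed by -1.74, *Ikbkb* (the kinase IKKβ) by -1.74 and *Specc1l* by -2.0 (adjusted p 0.322, 0.263 and 0.342), and each had another probe of the opposite sign. Their probes were well above background on 3 C arrays and on only 1 D array each. D replicate 2 read 5.61, 5.19 and 6.16, near the lowest C values of 5.87, 5.66 and 6.42, and D replicates 1 and 3 read lower. *Bptf* differed by -2.16 (adjusted p 0.434), with D replicate 2 at 8.86, the other D arrays at 12.30 and 12.39, and 1 of its 4 probes of the opposite sign.

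Detection itself leaned one way. Of 56605 probes, 383 were well above background on all 3 C arrays and on 0 D arrays, and 2 the other way round. The D arrays with fewer spots above background, replicates 1 and 3, are among the arrays that set this count, and leaving out D replicate 2 raised the total from 385 to 1931, while it was 584 without C replicate 1 and 708 without C replicate 3; the part of array sensitivity in it was not tested. Among the dimmest of 3 equal bins of tested probes the median SD was 0.30 in C and 0.57 in D, and in the brightest bin 0.11 and 0.22. The brightest bin held 422 probes higher (4.1%) and 472 lower (4.59%) at an unadjusted p under 0.05.

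Several genes of fatty acid use were clearly higher on every D array, although none passed the adjusted threshold. *Angptl4*, the secreted inhibitor of lipoprotein lipase, gave 9.04, 9.94 and 9.11 on the C arrays and 11.51, 11.62 and 11.48 on the D arrays, 2.18 higher (SE 0.43, adjusted p 0.216), and its D arrays lay close together. *Pdk4*, the kinase that switches off pyruvate dehydrogenase, gave 12.66, 12.07 and 11.83 on the C arrays and 13.87, 14.01 and 13.56 on the D arrays, 1.63 higher (SE 0.43, adjusted p 0.306). The acyl-CoA thioesterases *Acot1* and *Acot5* were 1.5 and 1.22 higher (adjusted p 0.270 and 0.342), both without overlap, and *Acot2* 0.59 higher with overlap. The thioesterases as a list hardly differed. Of 12 tested 8 had a higher mean in D, and 2 were higher and 0 lower at an unadjusted p under 0.05. Their median difference was 0.04 and the lowest -0.42.

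Over the 24 PPAR regulators and target genes tested, 6 were higher and 1 lower at an unadjusted p under 0.05, 17 had a higher mean in D (70.8%, against 50.3% over all genes), and the median difference was 0.29, or 0.12 without C and D replicate 1. The 11 target genes had a median of 0.36 with 10 higher, and the 13 receptors and coactivators one of 0.05 with 7 higher. *Ppara* itself gave 10.84, 11.09 and 11.05 on the C arrays and 11.37, 11.29 and 11.06 on the D arrays, 0.25 higher with overlap (adjusted p 0.578), and *Ppargc1a*, the coactivator PGC-1α, was 0.24 higher (adjusted p 0.626). *Nrip1*, a corepressor of nuclear receptors, differed by -0.79 (adjusted p 0.315), with another probe of the opposite sign. *Ucp3*, a mitochondrial carrier known as a PPARα target, was 0.36 higher (adjusted p 0.737), from 8.16, 7.89 and 7.54 on the C arrays and 7.53, 8.77 and 8.37 on the D arrays, where D replicate 1 lay at the level of the lowest C array.

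Fatty acid oxidation showed smaller differences. Of its 34 genes 24 had a higher mean in D (70.6%), 3 were higher and 0 lower at an unadjusted p under 0.05, 8 lay above C without overlap, against 12.7% of all genes, and the median difference was 0.15, or 0.30 under 75th percentile scaling. *Ech1*, the peroxisomal and mitochondrial dienoyl-CoA isomerase, gave 15.35, 15.29 and 15.31 on the C arrays and 15.76, 15.91 and 15.63 on the D arrays, 0.45 higher without overlap (adjusted p 0.371). *Hadha*, the α subunit of the trifunctional protein, was 0.54 higher and *Acadl*, the long-chain dehydrogenase, 0.42 (adjusted p 0.342 and 0.462). *Acadm*, the medium-chain dehydrogenase, was 0.81 higher (adjusted p 0.497), with C replicate 1 at 13.62 against 15.03 and 14.99 on the other C arrays. *Cpt1b*, the muscle carnitine palmitoyltransferase that admits fatty acids to mitochondria, was 0.15 higher (adjusted p 0.695), and the liver form *Cpt1a* 0.35 (adjusted p 0.651). Of the 14 genes of fatty acid uptake and activation 11 had a higher mean in D, with 0 at an unadjusted p under 0.05 in either direction and a median of 0.33, or 0.17 without C and D replicate 1. *Cd36*, the main fatty acid transporter of the heart, gave 13, 12.74 and 12.59 on the C arrays and 12.09, 13.09 and 13.08 on the D arrays, a difference of -0.02 (adjusted p 0.984) that was 0.17 under 75th percentile scaling.

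Among 21 genes of lipid droplets and lipolysis 15 had a higher mean in D, and the median was 0.30, or 0.17 without D replicate 2 and 0.17 with normexp background correction. The 11 droplet proteins had a median of 0.33 with 10 higher, and the 10 lipases and acyltransferases one of -0.0031 with 5 higher. *Plin5*, the droplet coat protein of oxidative tissue, gave 13.55, 13.47 and 13.37 on the C arrays and 14.33, 14.09 and 13.95 on the D arrays, 0.66 higher without overlap (adjusted p 0.315). *Cidea* and *Cideb*, which enlarge droplets, were 0.34 and 0.64 higher (adjusted p 0.441 and 0.374). The adipocyte list, with 7 of 10 markers tested and a median of 0.38 (0.24 without D replicate 3), moved with these: its summed signal was 40999 to 46079 in C and 52757 to 63372 in D, while *Adipoq*, *Cidec* and *Ucp1*, which define fat cells, did not pass the detection filter. *Cidea* is also on the adipocyte list, of which 2 genes lay above and 1 below C without overlap. *Slc36a2*, another of its genes, differed by -0.72. The part of fat cells in the lipid results was not tested. In fatty acid and sterol synthesis 5 of 33 genes were higher and 0 lower at an unadjusted p under 0.05. Among sterol genes *Srebf2*, the transcription factor of the pathway, was 0.66 higher (adjusted p 0.342) with another probe of the opposite sign, and *Sqle*, squalene epoxidase, was at least 2.19-fold higher (adjusted p 0.322), its probe being well above background on 0 C and 2 D arrays. *Scd4*, a stearoyl-CoA desaturase of the heart, was 2.33 higher at 1 probe (adjusted p 0.215) and 0.46 at its brighter probe (adjusted p 0.397).

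**Figure D3:**
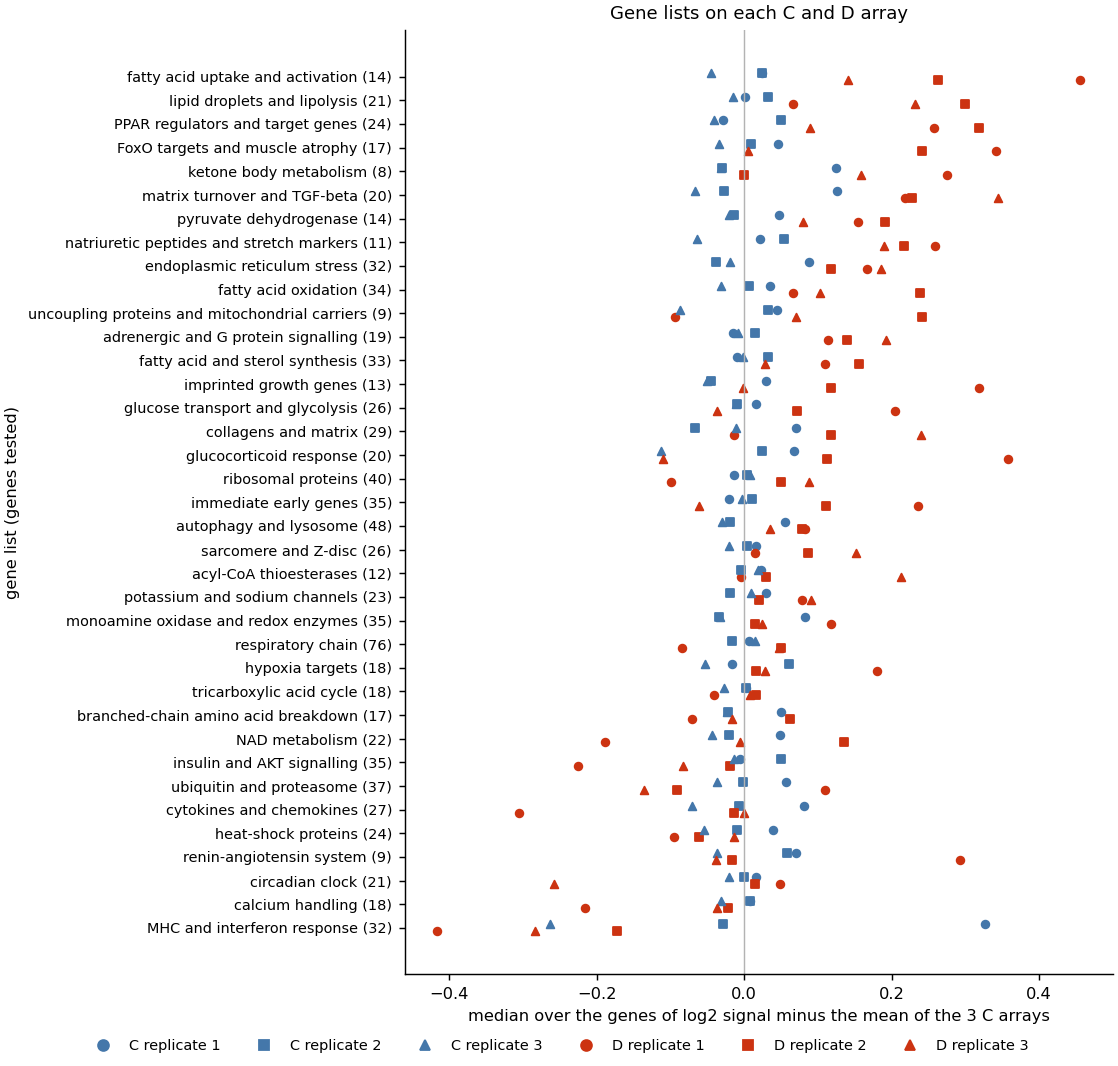
Each point is 1 array: the median over the genes of a list of log2 signal minus the mean of the 3 C arrays (x axis), with the number of genes tested after each list name (y axis), C arrays in blue and D arrays in red. The D arrays lay above all C arrays for fatty acid uptake (median difference 0.33), lipid droplets (0.30) and PPAR genes (0.29), and C and D overlapped for MHC and interferon genes. They also lay above for fatty acid oxidation, natriuretic peptides, adrenergic signalling, matrix turnover, endoplasmic reticulum stress and pyruvate dehydrogenase. For insulin and AKT signalling they lay narrowly below (highest D array -0.019, lowest C array -0.014).

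Genes of glucose use and the respiratory chain were read in the same way. Of 26 genes of glucose transport and glycolysis 1 was higher and 0 lower at an unadjusted p under 0.05, with a median of 0.07. Of the 5 glucose transporters 4 had a higher mean in D, with a median of 0.28, and 2 lay above and 1 below C without overlap. Those above were *Slc2a1*, which encodes GLUT1, at 0.28 and the dim *Slc2a8* at 0.75 higher (adjusted p 0.610 and 0.462). The one below was *Slc2a4*, which encodes GLUT4, the insulin-responsive transporter, and gave 14.95, 15.04 and 15.02 on the C arrays and 14.48, 14.73 and 14.89 on the D arrays. All D arrays lay below all C arrays, at a difference of -0.30 (SE 0.16, adjusted p 0.515). *Hk2*, the insulin-responsive hexokinase, differed by -0.45 (adjusted p 0.565), with D replicate 1 at 10.90 and the other D arrays at 11.99, and *Pfkp*, a phosphofructokinase, was 0.57 higher (adjusted p 0.354). Of the 14 pyruvate dehydrogenase genes 12 had a higher mean in D (85.7%), *Pdk4* foremost, 1 was higher and 0 lower at an unadjusted p under 0.05, and the list median against the C mean was 0.08 to 0.19 on the D arrays and -0.02 to 0.05 on the C arrays. The median difference was 0.17, or 0.26 under 75th percentile scaling and 0.056 with normexp background correction. Of 76 respiratory chain genes 0 had an unadjusted p under 0.05 by limma in either direction, 10 lay above and 7 below C without overlap (12.7 and 10.7% over all genes), and the median was 0.01. The 18 genes of the tricarboxylic acid cycle likewise gave 0 in either direction at that level, with a median of -0.01.

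Insulin and AKT signalling held both directions: of 35 genes 3 were higher and 6 lower at an unadjusted p under 0.05, and 7 lay above and 10 below C without overlap. Those higher at that level were *Irs2*, an adaptor of the insulin receptor, which gave 8.87, 9.23 and 9.17 on the C arrays and 10.36, 10.05 and 9.50 on the D arrays (0.88, adjusted p 0.270), the phosphatase gene *Inpp4b* (0.37, adjusted p 0.449) and the receptor *Insr* (0.48, adjusted p 0.462), the last with another probe of the opposite sign. *Irs1*, a second adaptor, differed by 0.53 (adjusted p 0.550) and was not among them. Those lower included *Rheb*, the GTPase that activates mTORC1, which gave 15.41, 15.57 and 15.50 on the C arrays and 14.29, 14.92 and 14.71 on the D arrays (-0.85, adjusted p 0.330) with another probe of the opposite sign, and the phosphoinositide 3-kinase genes *Pik3ca* (-0.75, adjusted p 0.441) and *Pik3r3* (-0.83, adjusted p 0.440). None of these passed the adjusted threshold. The median over the list was -0.06, and FoxO targets and atrophy genes, which insulin holds down, had a median of 0.21 over 17 genes with 0 higher and 1 lower at an unadjusted p under 0.05. The latter median was 0.13 without D replicate 1 and 0.35 without D replicate 3.

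Adrenergic signalling and ion channels included differences with little spread between arrays. *Rgs2*, which shortens signals through Gq-coupled receptors, gave 10.92, 11.02 and 10.96 on the C arrays and 12.08, 12.01 and 12.05 on the D arrays, with little spread inside either group, and was 1.08 higher (SE 0.21, adjusted p 0.215). *Grk5*, a receptor kinase, was 0.70 higher and *Grk2* differed by -0.60, the latter with another probe of the opposite sign, while *Adra1a*, the α1A receptor, was 0.68 higher (adjusted p 0.342, 0.420 and 0.315). *Kcne1*, a subunit of the slow delayed rectifier, gave 7.07, 6.92 and 6.94 on the C arrays and 8.24, 7.83 and 8.04 on the D arrays (1.06 higher, adjusted p 0.237). *Kcnip2*, the subunit of the transient outward current, gave 6.52, 6.58 and 6.59 on the C arrays and 7.31, 7.37 and 7.19 on the D arrays (0.73 higher, adjusted p 0.244). Of 18 calcium handling genes 0 were higher and 1 lower at an unadjusted p under 0.05, with a median of -0.18, which was -0.020 under 75th percentile scaling, -0.042 with the slide column as block, -0.059 without D replicate 1 and -0.11 without C replicate 1. The lower one was *Ryr2*, the calcium release channel of the sarcoplasmic reticulum, which gave 13.44, 13.81 and 13.54 on the C arrays and 11.83, 12.99 and 12.62 on the D arrays (-1.12, adjusted p 0.306), with 1 of its other probes of the opposite sign. *Atp2a2*, the SERCA2 pump, differed by 0.01 (adjusted p 0.992).

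In the matrix, *Ccn2* gave 10.30, 10.36 and 10.30 on the C arrays and 12.76, 12.19 and 11.45 on the D arrays, so that the C arrays lay close together and the D arrays apart, all of them higher; the difference was 1.82 (SE 0.37, adjusted p 0.221). The matrix proteins *Thbs4* and *Lum* were 0.67 and 0.42 higher (adjusted p 0.371 and 0.442), both without overlap. The 14 collagen genes had 0 members at an unadjusted p under 0.05 and a median of -0.02, while the 15 other matrix genes had 3 higher and 0 lower and a median of 0.29. Fibroblast markers, read as a check of cell content, gave a median of 0.05 over 10 genes with 1 higher at an unadjusted p under 0.05, *Lum*, which is on both lists. Of the 10, 7 had a higher mean in D and 3 lay above C without overlap, and their summed signal was 95992 to 102071 in C and 104546 to 112143 in D. Their part in the matrix differences was not tested.

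MHC and interferon genes had more members lower in D at an unadjusted p under 0.05 than any other gene list. Of 32 genes, 27 had a lower mean in D, 0 were higher and 8 lower at an unadjusted p under 0.05 (4.92% of all genes were lower), and 7 lay below C without overlap (10.7% of all genes). *Igtp*, an interferon-induced GTPase, gave 10.80, 10.46 and 10.10 on the C arrays and 9.57, 9.93 and 9.59 on the D arrays (-0.76, adjusted p 0.306), and *Tap1*, the peptide transporter of antigen presentation, 8.57, 8.53 and 8.34 on the C arrays and 6.89, 8.12 and 8.03 on the D arrays (-0.80, adjusted p 0.396). *H2-K1* and *B2m*, both chains of class I MHC, differed by -0.66 and -0.54 (adjusted p 0.465 and 0.407), the latter with overlap. All 12 MHC genes had a lower mean in D, with a median of -0.59, and the 20 interferon-induced genes a median of -0.21. The C arrays differed among themselves here: the list median against the C mean was 0.33 on C replicate 1, -0.03 on C replicate 2 and -0.26 on C replicate 3, against -0.42, -0.17 and -0.28 on the D arrays, so the list as a whole overlapped. Its median difference, -0.35, was -0.20 without C replicate 1, -0.19 without D replicate 1 and -0.04 without both, the arrays with high spot variation. Macrophage markers moved with it, with 10 of 10 lower in D, 1 of them, *C1qc*, at an unadjusted p under 0.05, a median of -0.26, and a summed signal of 18724 to 22169 in C and 14562 to 18729 in D. The macrophage median was -0.15 without C replicate 1, -0.15 without D replicate 1, -0.024 without both and -0.41 without D replicate 3. Under pargyline the macrophage median was -0.56 with 0 of 10 higher in D + P, while that of the MHC and interferon list was 0.02. The part of macrophages in the MHC result was not tested.

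Among the remaining groups, *H19*, an imprinted RNA of fetal muscle, gave 9.02, 9.37 and 9.45 on the C arrays and 10.71, 10.22 and 10.49 on the D arrays (1.19 higher, adjusted p 0.241). *Hif1a*, the hypoxia-inducible factor, was 1.13 higher (adjusted p 0.237) at its brightest probe with another of the opposite sign. Of the 18 hypoxia factors and targets tested, *Hif1a* among them, 2 were higher and 2 lower at an unadjusted p under 0.05, 4 lay above and 1 below C without overlap, and the median was -0.0048. The other higher one was *Egln3*, a prolyl hydroxylase that marks HIF for breakdown, at 0.52, and the lower ones were *P4ha2* at -0.64 and *Vegfa* at -0.69 (adjusted p 0.450, 0.278 and 0.422). *Txnip*, the glucose-induced inhibitor of thioredoxin, gave 13.40, 13.42 and 12.87 on the C arrays and 15.01, 14.50 and 14.07 on the D arrays (1.30 higher, adjusted p 0.237), and the peroxiredoxins *Prdx4* and *Prdx6* differed by 0.47 and -0.49 (adjusted p 0.342 and 0.392). Of the monoamine oxidase genes, *Maoa* differed by -0.08 and *Maob* by 0.18 (adjusted p 0.943 and 0.728). Among the 48 autophagy and lysosome genes 2 were higher and 0 lower at an unadjusted p under 0.05, with a median of 0.05. Of 32 endoplasmic reticulum stress genes 23 had a higher mean in D, 3 were higher and 0 lower at an unadjusted p under 0.05, and 9 lay above and 0 below C without overlap (12.7 and 10.7% over all genes), with a median of 0.15.

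A set of genes was also measured by qRT-PCR as a check of these arrays, so their direction is no independent evidence. On the arrays 7 of these 8 genes lay above C without overlap (*Angptl4*, *Nppa*, *Pdk4*, *Txnip*, *Hif1a*, *Rgs2* and *Prdx4*) and *Slc2a4* lay below. Of its 4 reference genes, *Actb* differed by -0.38 without overlap (adjusted p 0.456), *Gapdh* was 0.17 higher without overlap at its brightest probe with 4 of its 7 probes of the opposite sign, and *Rpl4* and *Tbp* overlapped at 0.32 and 0.26 higher.

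The mice under pargyline gave a second reading of diabetes from other hearts, on another slide and with no shared array. Over all 30859 probes the differences without and with pargyline correlated with r = 0.089 (Spearman's rho 0.0799), a description across probes, which are not independent and share the row layout and the normalization. Among probes above C without overlap 62.1% were higher under pargyline too, and among those below C 55.7% were also lower, against 53.9% with the same sign over all probes. Of probes at least 2-fold apart without overlap, 66.4% of the 256 higher and 48.8% of the 586 lower in D had the same sign there, and the lower ones had a median of 0.02 under pargyline. Of probes without overlap in the brightest bin, 69.6% of those higher and 58.9% of those lower in D had the same sign, and in the dimmest bin 52.1 and 53.9%. Of the lipid genes with large differences without pargyline, *Angptl4* was 3.47 higher under it, *Pdk4* 1.85 and *Acot1* 1.99. The lipid lists did not all follow. The median under pargyline was 0.23 for PPAR genes, 0.18 for fatty acid oxidation and 0.17 for lipid droplets, but 0.12 for fatty acid uptake, where it was 0.33 without pargyline, and -0.60 for the adipocyte list, where it was 0.38. Of 18 genes of mitochondrial beta-oxidation 14 had a higher mean in D and 9 in D + P, and of 8 ketone body genes 6 and 2. *H19*, *Kcne1* and *Kcnip2* were 1.29, 0.91 and 0.81 higher. The called *Nppa* probe was 0.74 higher under pargyline, without overlap (limma adjusted p 0.320). *Nmrk2* differed by 0.12 under pargyline and *Nppb* by -0.45, with C + P arrays of *Nmrk2* at 8.85, 8.38 and 8.54 and D + P arrays at 8.76, 8.76 and 8.6. The test of this difference of differences gave an adjusted p of 0.234 for *Nmrk2* and 0.565 for *Nppa*, so neither effect was shown to depend on pargyline. The MHC and interferon list had a median of 0.02 under pargyline, against -0.35 without. Its 12 MHC genes had a median of -0.10 under pargyline, with 4 of them higher in D + P, against -0.59 without. No member of the list passed the test of the difference of differences. Over all probes 2 did (0.00648%), *Nr4a1* and *Egr1*, neither of which differed by more than 0.46 between D and C. Both calls were lost with the slide column as block, which also left out C replicate 2 and D replicate 1.

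**Figure D4:**
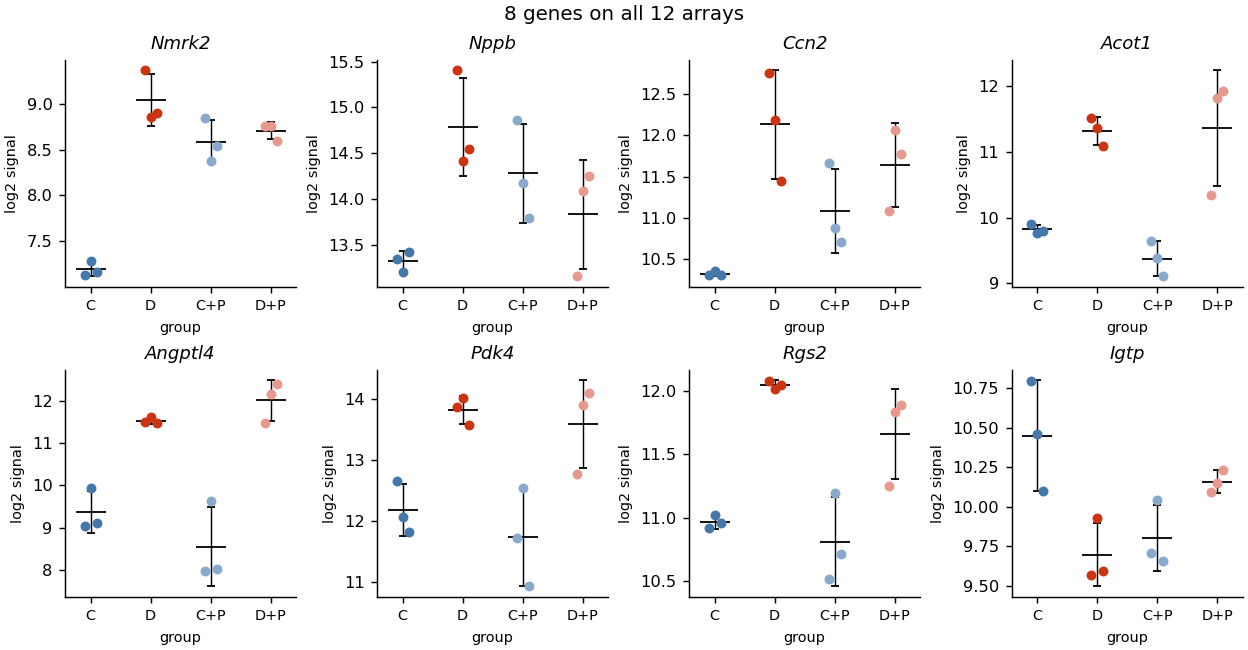
Log2 signal (y axis) of 8 genes on all 12 arrays by group (x axis); points are arrays, horizontal lines means and error bars 1 SD (n = 3). D lies above C without overlap for all but *Igtp*, which lies below, and the C + P points of *Nmrk2* lie near those of D + P.

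**Figure D5:**
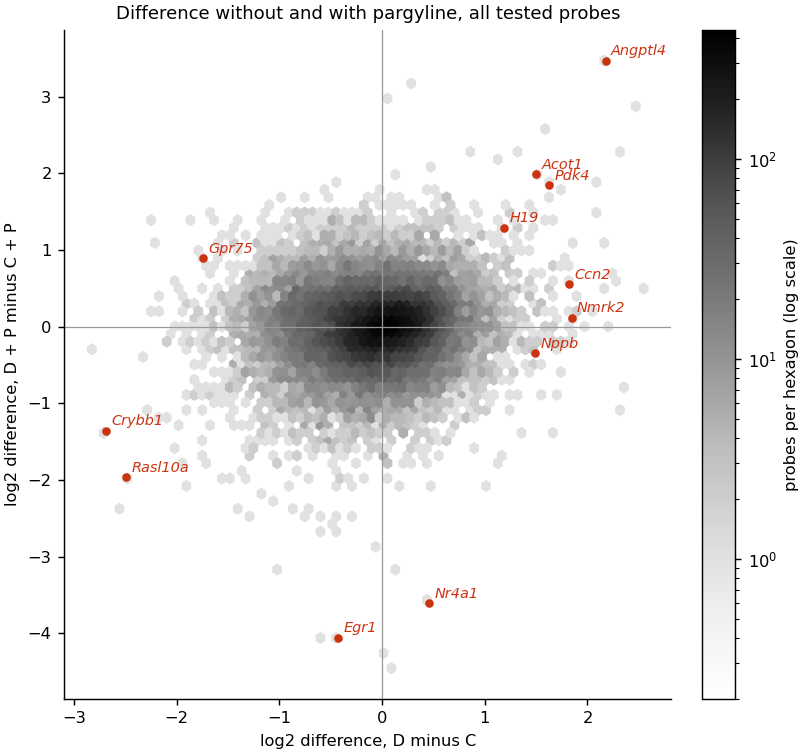
Log2 difference of D minus C (x axis) against that of D + P minus C + P (y axis) for all 30859 probes, as hexagons shaded by the number of probes on a log scale, with 12 genes in red by their probe of lowest p in D against C. The cloud shows little slope (r = 0.089), *Angptl4*, *Pdk4* and *Acot1* lie far out in both, and *Nmrk2* and *Nppb* in D minus C alone.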

How the data were processed

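RNA of heart muscle from separate mice was hybridised in 1 colour (Cy3) to Agilent SurePrint G3 mouse arrays, 1 array per mouse. Per the file headers, the deposited scanner intensity of each spot was made by Feature Extraction 12.0.0.7, which subtracted background on a linear scale, and probe coordinates are those of mm9. The authors also deposited a series table of intensity values, quantile normalised between the 12 arrays, which was used as an alternative.

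Control spots and spots marked as outliers were left out, signals were put on a log2 scale from the deposited intensities and quantile normalised over 12 arrays, with the mean taken over spots that share a probe. A probe was kept where, in each group, 50% or more of the arrays marked it as positive and significant, which left 30859 of 56605. All groups were fitted together with limma 3.58.1 in R 4.3.3 (data.table, version 1.17.8), without a block, since the 6 arrays alone leave few degrees of freedom, with Benjamini-Hochberg adjustment over all tested probes. The interaction of diabetes and pargyline was a contrast of the same fit. Figures used Python 3.11.15 with matplotlib 3.10.9. Gene names came from the scanner files, updated through RefSeq (GRCm38.p6), which matched 20774 of the tested probes. The number of arrays limits the precision.

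The genes named are those past an adjusted p of 0.05, the 14 largest differences in each direction among probes without overlap, well above background on the brighter group's arrays and at an unadjusted p under 0.05, up to 4 leading members of each gene list with those needed to lay out its roles, and the genes measured by qRT-PCR with their reference genes. Probes not well above background on any array of a group gave only a bound, from the means of normalised log2 values with the dim group set, per array, to the higher of its own value and the lowest signal well above background. The comparison, its members and the gene lists were chosen with earlier results of these data known. Some genes that the rule names are not reported here. The test code was checked on simulated data. Alternatives covered scaling, background correction, filters, weights, prior, samples, blocks, the methods' t-test, the deposited series table and each array left out. The fit with the slide column as block kept only columns with both C and D, without C replicate 2 and D replicate 1. After seeing the data, a fit without the C and D arrays with high spot variation was added.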

Additional observations from a re-analysis of the deposited data

Results flagged for a closer look

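For *Nr4a1*, an orphan nuclear receptor of the immediate early genes, the difference between diabetic and control hearts passed the test of a change with pargyline: it was 0.46 without it (adjusted p 0.572) and -3.61 with it, a difference of differences of -4.07 (SE 0.42, limma adjusted p 0.0221). For *Egr1*, a zinc finger factor of the same class, it was -0.43 without (adjusted p 0.555) and -4.05 with pargyline, a difference of differences of -3.62 (SE 0.38, limma adjusted p 0.0221). In both genes it was the C + P arrays that stood apart. *Nr4a1* read 8.42, 8.49 and 8.44 in C, 9.41, 8.85 and 8.45 in D and 8.50, 8.66 and 8.81 in D + P, against 12.73, 12.45 and 11.62 in C + P, and *Egr1* 7.22 to 8.43 in C, D and D + P, against 12.37, 11.60 and 11.74 in C + P. The summed signal of the immediate early gene list was 50738 to 68304 in C + P and 29007 to 37286 over the other groups, and its part in both results was not tested. Both calls were lost with the slide column as block, a fit that also left out C replicate 2 and D replicate 1. In 5 of 6 fits that left out 1 C or D array 0 probes were called, with 2 called without D replicate 3. Slide and pargyline cannot be told apart, since each slide held either the mice with or the mice without it.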

How the results depend on the processing

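The number of probes called, 2, became 2936 with array weights, whose estimation stopped before its tolerance, and 0 with the 6 arrays alone, the slide column as block, the methods' t-test (Benjamini-Hochberg or Bonferroni) and, chosen after seeing the data, without C and D replicate 1, the arrays with high spot variation. Unadjusted p-values under 0.05 then numbered 3588, 2628, 3533 and 3307. The slide column fit also lacked C replicate 2 and D replicate 1. Leaving out 1 array gave 0 to 5 calls, 1922 to 4053 probes at an unadjusted p under 0.05 and 8297 to 12993 probes without overlap, more by construction with fewer arrays. Replicate numbers did not pair the samples, as deviations of arrays of the same number correlated at -0.01, 0.07 and 0.18; with the replicate block 0 probes were called and 3192 had an unadjusted p under 0.05. Array weights gave 8787 probes at that level, and without both arrays of high spot variation 17634 did not overlap. List genes at an unadjusted p under 0.05, 101, became 267 with array weights, 38 with the slide column and 64 without those 2 arrays (68 to 113 with 1 array left out). Probes above background in 1 group only, 385, became 750 without them and 472 to 1931 with 1 array left out. The share of higher probes at an unadjusted p under 0.05 was 47.5%, and 31.4% with the slide column and without D replicate 1, 34.5% without both arrays of high spot variation, 57.7% with probes well above background on all arrays and 58.8% with the methods' t-test.

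The 2 interaction calls became 4 with normexp, with values not significant set to missing and with the trended prior, 5 with probes well above background on all arrays, 7 with probes positive in at least 1 group, 73 with array weights, 0 with the replicate block, the slide column and without the arrays of high spot variation, and 0 to 2 with 1 array left out. Differences near 0 changed sign. With percentile scaling *Acta1* was 0.042, *Ankrd1* 0.18, *Cd36* 0.17 and *Hspb2* 0.043. With normexp *Hibch* was -0.16, *Hspb2* 0.052 and *Myl2* -0.067. With array weights *Ankrd1* was 0.29, *Cd36* 0.31 and *Maoa* 0.065. With the slide column *Acta1* was 0.25, *Ankrd1* 0.040, *Atp2a2* -0.00046, *Cd36* 0.29, *Maoa* 0.27 and *Tbp* -0.083. Without the arrays of high spot variation *Acta1* was 0.27, *Ankrd1* 0.41, *Cd36* 0.43, *Maoa* 0.12 and *Tbp* -0.12. With 1 array left out *Ankrd1* lay between -0.17 and 0.24, *Cd36* -0.19 and 0.31, *Maoa* -0.25 and 0.11, *Acta1* -0.40 and 0.22, *Atp2a2* -0.063 and 0.11, and *Tbp* -0.091 and 0.52. The cause was not tested. Of the named values under the alternatives, 3783 kept their direction and side of the threshold, 76 came to pass it, nearly all with array weights, 21 no longer passed it and 32 changed sign, and of the list medians 834 moved by less than the spread between replicates and 102 by more.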
